A study of Homo sapiens with 6 samples.

Results

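The centromere and kinetochore genes described here were the 46 genes of the deposited read count table whose symbol stands in a fixed list of centromere proteins, CENPA loading factors, kinetochore subunits, spindle checkpoint proteins and chromosomal passenger proteins. The table holds 39323 genes, and all 46 were found in it. All 46 also passed the filter on low counts, with 133 to 9504 reads per gene and library, so no member was left out of the tests.

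The centromere is the chromosome region at which spindle microtubules attach, and in human cells it is marked by nucleosomes that carry the histone H3 variant CENPA. A constitutive centromere-associated network of CENP proteins (CCAN) sits on these nucleosomes through the cell cycle, and in mitosis it carries the outer kinetochore, in which the MIS12, KNL1 and NDC80 complexes bind microtubules. The spindle assembly checkpoint delays anaphase until chromosomes are attached, and the Aurora B kinase of the chromosomal passenger complex releases faulty attachments. Many genes of this machinery are transcribed in G2 and mitosis, and their messenger RNA is higher in dividing cells.

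The cells were MDA-MB-231, a human triple-negative breast cancer line, and polyadenylated RNA was sequenced in 3 libraries of cells transfected with an siRNA against SF3B6 (siSF3B6) and 3 of cells transfected with a non-targeting siRNA (siNC). SF3B6 encodes a small subunit of the SF3b part of the U2 small nuclear ribonucleoprotein, which recognises the branch site of introns. Both groups were transfected with Lipofectamine RNAiMAX, no untransfected cells were compared, and a single siRNA duplex stood for each group, so an effect of the sequence other than on SF3B6 cannot be told apart from the knockdown. The design text calls the replicates biological, but the labels do not say that they came from separate platings, so the p-values speak only of the spread among these libraries. Every sample title names MDA-MB-231, although a cell line field in the labels counts the number upward over samples, and the titles were followed. The sense strands, as the labels give them, are shown because they define the groups. The 2 bases in capitals at the 3′ end are the thymidine overhang.
siSF3B6: ggaggaacaguugaagcuuTT
siNC: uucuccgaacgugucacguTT

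The libraries held 30684131, 38546037 and 31326673 counted reads in siSF3B6 and 29627499, 28504091 and 33754386 in siNC. The siNC libraries were not alike: replicates 1 and 2 had 13952 and 14956 genes with only 1 to 9 reads and 3.38% and 3.93% of reads on the mitochondrial genome, whereas siNC replicate 3 had 7731 such genes and 9.07%. The siSF3B6 libraries had 7877 to 8325 such genes and 10.6% to 11.8% mitochondrial reads, on the side of siNC replicate 3. Their part in the results was not tested; values without single libraries are given beside the genes whose call they alter. The line's markers VIM, CD44, AXL and ZEB1 were present and ESR1 and PGR were at or near 0, whereas SPARC, a marker listed as present, was at 1.84 CPM (read counts relative to the TMM-scaled library size, as throughout) in siSF3B6 and 0.675 in siNC. Markers of blood, endothelium and liver (PTPRC, CD3E, CD68, CDH5, ALB) reached at most 3.84 CPM, and PECAM1 reached at most 9.68. CDH1, EPCAM and ERBB2, listed as low in this line, were at 6.63, 22.8 and 56.6 CPM in siSF3B6 and at 4.50, 10.7 and 59.8 in siNC.

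SF3B6 was measured at 22.5, 25 and 21.3 CPM in siSF3B6 and at 86.4, 80.5 and 102 CPM in siNC. Every siSF3B6 library was below every siNC library, and the level left was 25.6% of that in siNC (log2 fold change -1.96 ± 0.104 SE, edgeR quasi-likelihood test, Benjamini-Hochberg adjusted p = 1.43e-07). The exact permutation test, two-sided over the 6 libraries, returned p = 0.1, which is the smallest it can reach with 3 against 3.

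Most centromere and kinetochore genes were lower after SF3B6 knockdown. Of the 46 genes, 26 fell, 5 rose and 15 did not pass an adjusted p of 0.05 in the edgeR test. Over all 16869 genes tested, 20.0% fell and 20.8% rose. The members were chosen with earlier results of these data known, which limits this comparison. The median log2 fold change, siSF3B6 over siNC, was -0.328 over the 46 genes and 0.001 over all genes tested, and 39 of the 46 had a negative value. In 31 of the 46 genes every siSF3B6 library was below every siNC library, against 25.9% of all genes tested, and in 5 every siSF3B6 library was above, against 26.3%. The falls were mostly modest: 3 genes (OIP5, CENPM and CENPP) fell at least 2-fold. Of the called genes, 12 changed by at least 0.5 on the log2 scale, all of them lower. The share of all genes tested that reached these sizes was not counted, so these 2 counts cannot be read as a trait of the members. The 5 genes that rose (CENPC, CENPL, SKA2, CENPF and TTK) rose by 0.29 to 0.32 on the log2 scale. In bulk RNA, fewer dividing cells and less RNA per cell cannot be told apart.

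All 26 genes that fell kept a negative value in each of the 20 alternative settings, and 16 of them also kept their call in all of these settings. None of the 5 rises passed when libraries were scaled by total reads alone, when FPKM values were tested with limma, without siNC replicate 2, or against siNC replicate 3 alone. Without siNC replicate 1, without siSF3B6 replicate 1 and without siSF3B6 replicate 3 the test called 2, 3 and 1 rises. Against siNC replicate 3 alone the median was -0.376. With the libraries numbered 1 and 2 only, 33 genes fell and 5 rose, with a median of -0.336. The share of all genes called was not counted in these settings. A change in these counts therefore cannot be read as a trait of the members. With a GC and length offset, described further on, 36 fell and 2 rose.

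**Figure D1:**
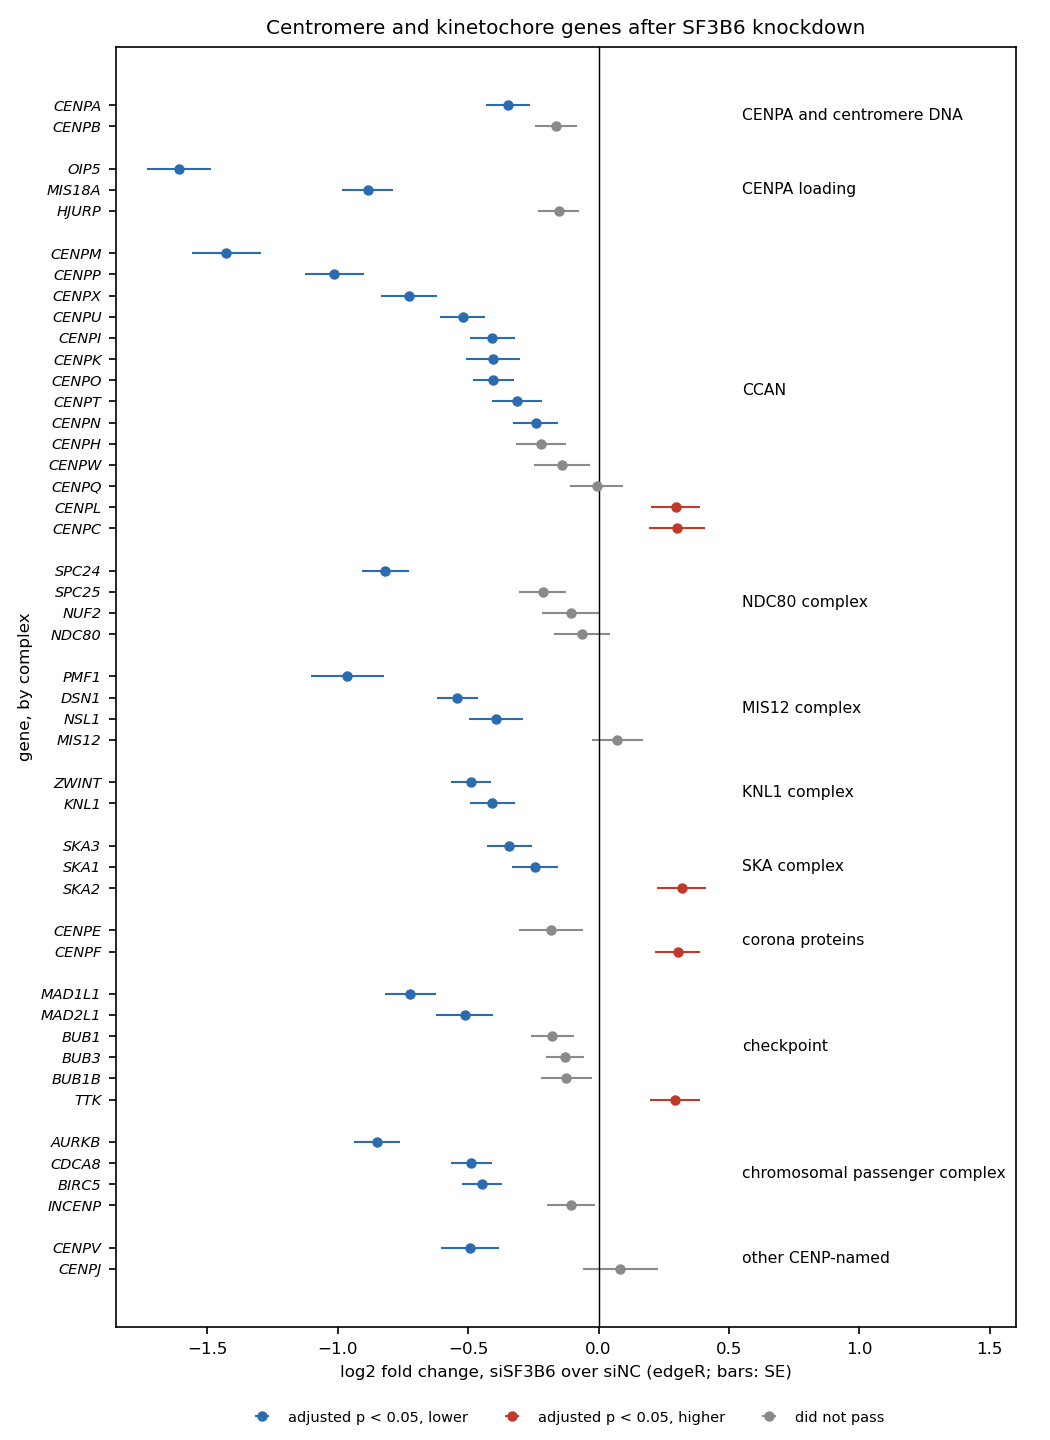
The plot gives the log2 fold change of each of the 46 genes, siSF3B6 over siNC, on the horizontal axis, with genes grouped by complex down the page; points are edgeR estimates from 3 libraries per group and bars are standard errors. OIP5 at -1.61 and CENPM at -1.43 lie farthest to the left, and the 5 red points lie between 0.29 and 0.32.

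**Figure D2:**
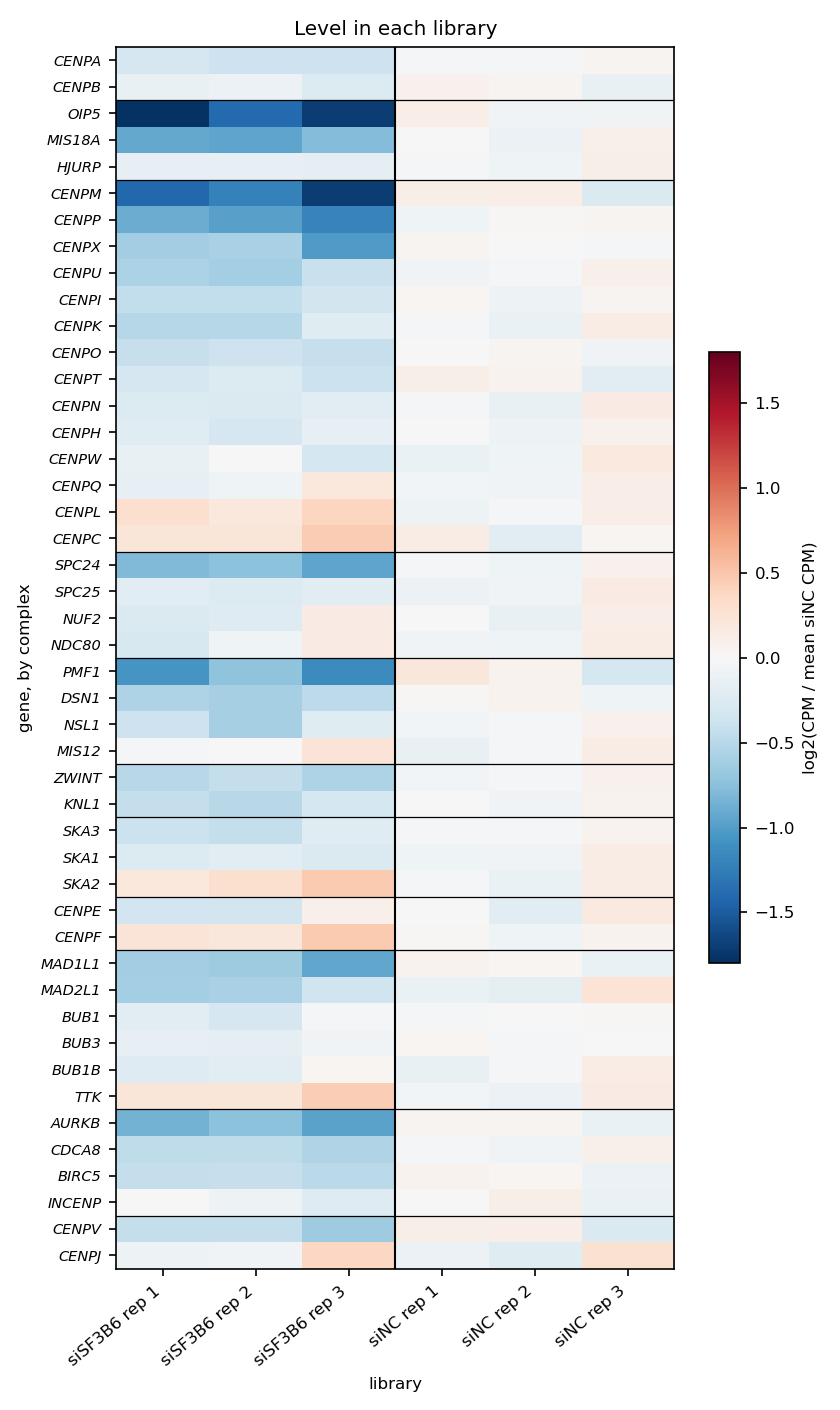
The heat map shows each gene's CPM in each library as the log2 ratio to the mean siNC CPM, with the 3 siSF3B6 libraries in the left columns and the 3 siNC libraries in the right columns. OIP5, CENPM, CENPP, PMF1, MIS18A, AURKB and SPC24 are blue in all siSF3B6 columns, and SKA2, CENPF, CENPC, CENPL and TTK are red in all of them.

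Promoters of mitotic genes often carry a cell cycle homology region (CHR) close to the start site, with CCAAT boxes upstream of it, and E2F sites. The 250 bases before and 50 bases from the start site on were available from RefSeq (GRCh38.p14) for 37 of the 46 genes, with the first listed start used where there were several. The CHR word TTTGAA, on either strand, was present in 16 of the 37 promoters (43.2%) and in 11.5% of 14338 promoters of protein-coding genes of the count table. Other forms of the CHR, such as TTCGAA, were not searched for, so every CHR count and mark here refers to TTTGAA alone. The CCAAT word was present in 22 (59.5%, against 36.3%), and an E2F core, TTCCCGC or TTGGCGC, in 10 (27.0%, against 12.8%). CHR and CCAAT occurred together in 10 promoters (27.0%, against 4.74%), all 3 motifs in 5 and none of them in 8, and 2 matches of different motifs overlapped each other. Of the 22 promoters of genes that fell, 8 held a CHR, 12 a CCAAT word, 6 an E2F core and 7 none. Of the 12 promoters of genes that did not pass, 6 held a CHR, 7 a CCAAT word, 4 an E2F core and 1 none. Of the 3 promoters available for genes that rose, 2 held a CHR, 3 a CCAAT word and none an E2F core. A match describes letters in the window and is no evidence of binding. OIP5, with the largest fall, and ZWINT, the fallen gene of highest level, are shown beside CENPF and SKA2, which rose, to let the promoters of both kinds of genes be compared. Each is given 5′ to 3′ on the strand of the gene with the matches in capitals. In the OIP5 promoter (chr15:41332542-41332841, minus strand) and the ZWINT promoter (chr10:56361210-56361509, minus strand) the capitals mark CCAAT, E2F and, in ZWINT, CHR words. In CENPF (chr1:214602945-214603244, plus strand) they mark 4 CCAAT words and 1 CHR, and in SKA2 (chr17:59155137-59155436, minus strand) 5 CCAAT words.
OIP5: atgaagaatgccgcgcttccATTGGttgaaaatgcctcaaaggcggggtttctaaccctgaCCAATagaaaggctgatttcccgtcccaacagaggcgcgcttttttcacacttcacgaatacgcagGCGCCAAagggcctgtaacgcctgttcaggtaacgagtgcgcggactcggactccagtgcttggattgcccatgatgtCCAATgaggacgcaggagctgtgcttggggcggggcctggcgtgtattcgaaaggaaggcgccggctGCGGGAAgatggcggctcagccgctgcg
ZWINT: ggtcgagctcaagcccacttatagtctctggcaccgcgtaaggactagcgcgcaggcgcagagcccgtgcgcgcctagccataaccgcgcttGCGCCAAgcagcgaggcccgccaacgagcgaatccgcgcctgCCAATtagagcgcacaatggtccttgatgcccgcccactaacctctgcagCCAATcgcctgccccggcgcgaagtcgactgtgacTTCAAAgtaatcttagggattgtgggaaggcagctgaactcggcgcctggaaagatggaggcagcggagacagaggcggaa
CENPF: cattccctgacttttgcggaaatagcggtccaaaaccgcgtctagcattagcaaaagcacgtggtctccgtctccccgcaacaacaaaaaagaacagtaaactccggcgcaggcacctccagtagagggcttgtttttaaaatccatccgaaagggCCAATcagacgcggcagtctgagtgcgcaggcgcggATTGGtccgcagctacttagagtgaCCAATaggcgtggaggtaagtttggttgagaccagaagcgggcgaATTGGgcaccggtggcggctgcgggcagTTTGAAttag
SKA2: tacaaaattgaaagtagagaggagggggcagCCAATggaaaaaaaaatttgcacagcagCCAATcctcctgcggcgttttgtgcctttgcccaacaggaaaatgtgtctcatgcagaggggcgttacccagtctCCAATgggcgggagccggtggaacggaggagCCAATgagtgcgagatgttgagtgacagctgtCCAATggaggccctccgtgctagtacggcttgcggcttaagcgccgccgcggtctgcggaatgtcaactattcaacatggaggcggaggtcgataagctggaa

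CENPA itself, the centromeric histone, was mildly lower. It measured 20.5, 19.4 and 19.5 CPM in siSF3B6 and 24.9, 24.5 and 26.1 CPM in siNC. The groups did not overlap, and the fall was small (log2 fold change -0.35 ± 0.0843 SE, edgeR adjusted p = 0.005). CENPB, which binds a sequence in alpha-satellite DNA, measured 172, 175 and 160 CPM in siSF3B6 and 199, 195 and 173 CPM in siNC. Its groups overlapped through siNC replicate 3 and siSF3B6 replicate 2, and the change of -0.16 did not pass (adjusted p = 0.124). Without siNC replicate 3 it was called lower (-0.22, adjusted p = 0.0276), and the fit with the GC and length offset gave a rise of 0.17 (adjusted p = 0.0337).

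The loading of new CENPA after mitosis uses the Mis18 complex, which includes MIS18A and OIP5 (also called MIS18B), and the chaperone HJURP. OIP5 (ENSG00000104147.9, chromosome 15, 41309268 to 41332621, minus strand) had the largest fall of the 46 genes. It measured 4.53, 5.93 and 4.77 CPM in siSF3B6 and 16.9, 15 and 14.9 CPM in siNC. The highest siSF3B6 library was well below the lowest siNC library, and the log2 fold change was -1.61 ± 0.124 SE (adjusted p = 1.69e-06). MIS18A measured 11.1, 10.9 and 12.3 CPM in siSF3B6 and 21.2, 19.5 and 22.4 CPM in siNC. It too fell without overlap, by 0.89 on the log2 scale (SE 0.0983, adjusted p = 2.18e-05). HJURP measured 81.2, 81.1 and 79.9 CPM in siSF3B6 and 87.2, 85.2 and 96.6 CPM in siNC. All siSF3B6 libraries were below the siNC libraries by a small margin, and the change of -0.15 did not pass (adjusted p = 0.139). Under the GC and length offset HJURP passed as well, at -0.16 (adjusted p = 0.0349). All 3 loading genes thus fell in that fit, against 22.7% of all genes tested.

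OIP5 shares 38.0% of its exonic bases with the opposite-strand gene OIP5-AS1, and the sources do not state whether the counting used strand. OIP5-AS1 measured 60.7, 62.7 and 66.6 CPM in siSF3B6 and 64.0, 61.3 and 70.4 CPM in siNC, and its value of -0.04 did not pass (adjusted p = 0.712); under the GC and length offset it was called lower, at -0.25 (adjusted p = 0.00377). The library kit was directional, per the labels. Opposite-strand genes also cover 31.4% of the exonic bases of CENPO, 22.8% of CENPN, 19.6% of CENPT and 11.7% of CENPU, and on its own strand BUB1B shares 10.2% with the readthrough gene BUB1B-PAK6. Reads of the opposite-strand pairs cannot be told apart if strand was not used, and reads in the bases that BUB1B shares with BUB1B-PAK6 cannot be told apart by strand.

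In the CCAN, 9 of 14 genes fell, 2 rose and 3 did not pass, with a median log2 fold change of -0.359. Over all genes tested 20.0% fell and 20.8% rose. CENPM, a subunit of the CENPH-CENPI-CENPK-CENPM group with a fold like that of a small GTPase, fell most. It (ENSG00000100162.15, chromosome 22, 41938721 to 41947164, minus strand) measured 12.9, 14.8 and 10.5 CPM in siSF3B6 and 36.9, 37.4 and 28.6 CPM in siNC. The groups stood clear of each other, with the third replicate lowest in both (log2 fold change -1.43 ± 0.133 SE, adjusted p = 6.6e-06). The other subunits of that group changed less: CENPI and CENPK fell with log2 fold changes of -0.41 each (adjusted p = 0.00212 and 0.0069), and CENPH had -0.22 and did not pass (adjusted p = 0.0788). CENPH was called lower without siSF3B6 replicate 3 (-0.27, adjusted p = 0.041) and under the GC and length offset (-0.33, adjusted p = 0.00208).

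The CENPO, CENPP, CENPQ and CENPU proteins form another group of the CCAN, in which CENPU recruits the kinase PLK1. CENPP (ENSG00000188312.14, chromosome 9, 92325484 to 92620533, plus strand) measured 6.88, 6.5 and 5.56 CPM in siSF3B6 and 12.1, 13 and 13.2 CPM in siNC. It fell without overlap (log2 fold change -1.01 ± 0.114 SE, adjusted p = 2.43e-05), and it shares 42.7% of its exonic bases with genes on the opposite strand, mainly IPPK. CENPU measured 51.1, 49.6 and 57.5 CPM in siSF3B6 and 72.1, 74.2 and 80.8 CPM in siNC. All siSF3B6 libraries were lower (log2 fold change -0.52 ± 0.0863 SE, adjusted p = 0.000393). CENPO fell by 0.40 (adjusted p = 0.00125), whereas CENPQ had nearly equal means, 34.2 ± 4.40 CPM in siSF3B6 and 34.3 ± 2.44 CPM in siNC (SD, n = 3 each, adjusted p = 0.962). Under the GC and length offset CENPQ was called lower, at -0.21 (adjusted p = 0.0108).

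CENPT and CENPW, with CENPX and its partner CENPS, are histone-fold proteins that bind DNA. CENPX measured 42.5, 43.5 and 32.3 CPM in siSF3B6 and 67.6, 64.8 and 63.6 CPM in siNC. It fell without overlap, and siSF3B6 replicate 3 was the lowest library (log2 fold change -0.73 ± 0.106 SE, adjusted p = 0.000154). CENPT, which links the CCAN to the NDC80 complex, fell by 0.31 (adjusted p = 0.0177), a call that was lost when siNC replicate 1 or 2 was left out (adjusted p = 0.0948 and 0.0759) and under the GC and length offset (adjusted p = 0.112). CENPW measured 29.9, 32.8 and 26.3 CPM in siSF3B6 and 30.2, 31.0 and 36.9 CPM in siNC. Its groups overlapped, and its value of -0.14 did not pass (adjusted p = 0.314), while under the GC and length offset it was called lower, at -0.32 (adjusted p = 0.0224).

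CENPC, the scaffold that ties CENPA nucleosomes to the MIS12 complex, and CENPL were the CCAN genes that rose. CENPC measured 19.8, 19.9 and 23.3 CPM in siSF3B6 and 18.6, 15 and 17.5 CPM in siNC. Its groups did not overlap, and the difference was small (log2 fold change 0.30 ± 0.106 SE, adjusted p = 0.0353). CENPL measured 22.6, 20.9 and 23.9 CPM in siSF3B6 and 17.1, 18 and 19.8 CPM in siNC. The groups again did not overlap (log2 fold change 0.29 ± 0.0954 SE, adjusted p = 0.0241). CENPN, the partner of CENPL and a reader of the CENPA nucleosome, fell by 0.24 (adjusted p = 0.0387), but this call was lost without siNC replicate 1 or 3 and without siSF3B6 replicate 1 or 2 (adjusted p = 0.0925 to 0.124). The CENPL and CENPC calls were lost without siNC replicate 2 (adjusted p = 0.0871 and 0.179), siSF3B6 replicate 1 (0.0740 and 0.0503) or siSF3B6 replicate 3 (0.0637 and 0.110), and that of CENPL also without siNC replicate 1 (0.122).

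Of the NDC80 complex, the rod that binds microtubules, 1 of 4 genes fell, near the 20.0% of all genes tested that fell. SPC24, one of the subunits at the kinetochore end of the rod, measured 23.6, 24.5 and 21.2 CPM in siSF3B6 and 40.3, 38.8 and 43.2 CPM in siNC. All siSF3B6 libraries were lower (log2 fold change -0.82 ± 0.0900 SE, adjusted p = 2.08e-05). NUF2, at the microtubule end, measured 49.7, 50.7 and 66.0 CPM in siSF3B6 and 59.8, 54.5 and 64.7 CPM in siNC. Its siSF3B6 replicate 3 was above all siNC libraries while the other siSF3B6 libraries were below them, and the value of -0.11 did not pass (adjusted p = 0.473). Without siSF3B6 replicate 3 NUF2 was called lower (-0.26, adjusted p = 0.0333). NDC80, with -0.06 (adjusted p = 0.663), and SPC25, with -0.21 (adjusted p = 0.0744), did not pass either. Under the GC and length offset all 4 fell, with a median of -0.317, against 22.7% of all genes tested.

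The MIS12 complex joins the CCAN to the microtubule-binding layer, and 3 of its 4 genes fell, against 20.0% of all genes tested. PMF1 measured 13.4, 16.9 and 12.7 CPM in siSF3B6 and 32.4, 29.2 and 22.5 CPM in siNC. All siSF3B6 libraries were lower, with siNC replicate 3 the lowest of the siNC libraries (log2 fold change -0.96 ± 0.139 SE, adjusted p = 0.000149). PMF1 shares 23.3% of its exonic bases with the readthrough gene PMF1-BGLAP on its own strand, so the authors' counting could have split its reads, and its level is uncertain. DSN1, the subunit phosphorylated by Aurora B, measured 49.5, 48.1 and 52.2 CPM in siSF3B6 and 73.5, 75.6 and 68.9 CPM in siNC. The fall left no overlap between groups (log2 fold change -0.54 ± 0.0795 SE, adjusted p = 0.000167). MIS12 itself measured 40.9, 41.8 and 49.2 CPM in siSF3B6 and 38.1, 41.2 and 46 CPM in siNC. The groups overlapped and the value of 0.07 did not pass (adjusted p = 0.589). NSL1 fell by 0.39 (adjusted p = 0.00775); without siSF3B6 replicate 2 the adjusted p was 0.0503.

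Both genes of the KNL1 complex fell, against 20.0% of all genes tested. ZWINT, which binds KNL1 and helps to hold the RZZ complex, measured 89.8, 93.5 and 86.3 CPM in siSF3B6 and 122, 124 and 133 CPM in siNC. The groups stood apart with little spread (log2 fold change -0.49 ± 0.0765 SE, adjusted p = 0.000262). KNL1, the platform for BUB proteins and protein phosphatase 1, averaged 27.3 ± 1.73 CPM in siSF3B6 and 36.2 ± 1.64 CPM in siNC (SD, n = 3 each), a log2 fold change of -0.41 (adjusted p = 0.00211).

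The SKA complex, which tracks microtubule ends and strengthens attachment, was split. SKA2 measured 108, 115 and 131 CPM in siSF3B6 and 92.1, 87.1 and 104 CPM in siNC. It rose without overlap (log2 fold change 0.32 ± 0.0949 SE, adjusted p = 0.0162), a call lost without siNC replicate 1 (adjusted p = 0.0665), siNC replicate 2 (0.0925) or siSF3B6 replicate 3 (0.0557). SKA3 measured 34.6, 33.5 and 38.7 CPM in siSF3B6 and 44.4, 43.9 and 47.0 CPM in siNC. The groups did not overlap (log2 fold change -0.34 ± 0.0860 SE, adjusted p = 0.00626). SKA1 fell by 0.24 at adjusted p = 0.04, and this call was lost with any single library left out (adjusted p = 0.0534 to 0.124).

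The corona proteins CENPE, a plus-end kinesin, and CENPF, a large coiled-coil protein that binds dynein adaptors, are among the largest proteins of the outer kinetochore. CENPF measured 180, 175 and 211 CPM in siSF3B6 and 155, 144 and 159 CPM in siNC. It rose without overlap (log2 fold change 0.30 ± 0.0878 SE, adjusted p = 0.0139), and the call was lost without siNC replicate 2 (adjusted p = 0.0812). CENPE measured 32.1, 32.2 and 43.1 CPM in siSF3B6 and 40.6, 35.4 and 45.9 CPM in siNC. Its siSF3B6 replicate 3 lay among the siNC libraries, and its value of -0.18 did not pass (adjusted p = 0.257). It was called lower without siSF3B6 replicate 3 (-0.34, adjusted p = 0.0265), and in the fit with the offset it fell by 0.42 (adjusted p = 0.000411).

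Among the 6 spindle checkpoint genes 2 fell, 1 rose and 3 did not pass, beside 20.0% lower and 20.8% higher over all genes tested. The pair that fell, MAD1L1 and MAD2L1, encodes the MAD1-MAD2 complex that produces the inhibitor of the anaphase-promoting complex. MAD1L1 measured 42.8, 42.2 and 34.5 CPM in siSF3B6 and 68.8, 67.7 and 60.8 CPM in siNC. It fell without overlap (log2 fold change -0.72 ± 0.0973 SE, adjusted p = 8.97e-05). MAD2L1 measured 52.7, 53.8 and 62.4 CPM in siSF3B6 and 74.3, 71.8 and 94.9 CPM in siNC. It also fell without overlap, with siNC replicate 3 the highest library (log2 fold change -0.51 ± 0.110 SE, adjusted p = 0.00221). TTK (MPS1), the kinase that starts checkpoint signalling by phosphorylating KNL1, measured 48.9, 48.9 and 57.1 CPM in siSF3B6 and 40.5, 39.0 and 46.8 CPM in siNC. It rose without overlap (log2 fold change 0.29 ± 0.0966 SE, adjusted p = 0.0265), a call lost without siNC replicate 1 (adjusted p = 0.107), siNC replicate 2 (0.130) or siSF3B6 replicate 3 (0.0861).

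The genes of the BUB proteins of the checkpoint did not pass with all libraries in the test. BUB3, the adaptor that brings BUB1 and BUB1B to KNL1, measured 254, 250 and 268 CPM in siSF3B6 and 287, 274 and 283 CPM in siNC. All siSF3B6 libraries were below the siNC libraries, at a value of -0.13 (adjusted p = 0.182). BUB1 had -0.18 (adjusted p = 0.103) and BUB1B had -0.12 (adjusted p = 0.336). Without siSF3B6 replicate 3, BUB1 (-0.26, adjusted p = 0.0105) and BUB3 (-0.17, adjusted p = 0.0497) were called lower. In the fit with the offset these 3 genes fell by 0.30 (BUB3), 0.32 (BUB1) and 0.25 (BUB1B) on the log2 scale.

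In the chromosomal passenger complex 3 of 4 genes fell, against 20.0% of all genes tested. AURKB, the Aurora B kinase, measured 58.1, 63.2 and 54.0 CPM in siSF3B6 and 109, 109 and 97.0 CPM in siNC. The groups stood clear of each other (log2 fold change -0.85 ± 0.0871 SE, adjusted p = 1.27e-05). CDCA8 (Borealin) and BIRC5 (Survivin), which target the complex to centromeres, fell with log2 fold changes of -0.49 (adjusted p = 0.000333) and -0.45 (adjusted p = 0.00051). BIRC5 averaged 125 ± 3.29 CPM in siSF3B6 and 171 ± 10.4 CPM in siNC (SD, n = 3 each). INCENP, the scaffold that activates Aurora B, measured 33.9, 31.8 and 29 CPM in siSF3B6 and 34.0, 36.5 and 31.4 CPM in siNC. Its groups overlapped, and its value of -0.10 did not pass (adjusted p = 0.39).

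The remaining CENP-named genes differ in role. CENPV, a centromere-associated protein, measured 23.1, 23.0 and 19.8 CPM in siSF3B6 and 33.5, 33.6 and 25.9 CPM in siNC. It fell without overlap, with the third replicate lowest in both groups (log2 fold change -0.49 ± 0.111 SE, adjusted p = 0.00314). Against siNC replicate 3 alone the log2 fold change of CENPV was smaller, at -0.25. CENPJ, a protein of centriole assembly, measured 14.8, 15.1 and 20.5 CPM in siSF3B6 and 14.7, 13.6 and 19.1 CPM in siNC. The third replicate was highest in both groups, the groups overlapped, and the value of 0.08 did not pass (adjusted p = 0.676).

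The spread within a complex can be shown as the ratio of FPKM, within each library, of the gene of lowest to the gene of highest fold change. These pairs were picked by their fold changes, which fixes the direction of the ratio, so the values describe its size only. SPC24 relative to NDC80 was 0.602, 0.542 and 0.401 in siSF3B6 and 0.875, 0.859 and 0.826 in siNC. OIP5 relative to HJURP was 0.177, 0.232 and 0.190 in siSF3B6 and 0.615, 0.559 and 0.490 in siNC. AURKB relative to INCENP was 3.40, 3.95 and 3.70 in siSF3B6 and 6.40, 5.95 and 6.13 in siNC. In the KNL1 complex, both of whose genes fell, the ratio of ZWINT to KNL1 overlapped between groups, at 14.4, 15.6 and 12.8 in siSF3B6 and 14.4, 15.5 and 15.1 in siNC.

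Levels between genes were compared per length, as the deposited FPKM. In siSF3B6 the highest means were 48.2 FPKM for CENPB, 31.2 for ZWINT and 30.1 for SKA2, and in siNC they were 56.0 for CENPB, 45.4 for ZWINT and 40.2 for AURKB. In siNC 7 genes had at least 30 FPKM and 4 (CENPJ, CENPC, NSL1 and CENPP) had less than 3. The lowest was CENPP, at 0.560 FPKM in siSF3B6 and 1.17 FPKM in siNC. Of the 45 pairs of neighbours in the order of siNC levels, 34 overlapped in their siNC libraries, so most of the order is not resolved. The largest shifts of place were those of OIP5, CENPM and TTK. OIP5 was in place 39 in siSF3B6 and 24 in siNC, CENPM in place 29 in siSF3B6 and 15 in siNC, and TTK in place 21 in siSF3B6 and 33 in siNC. SKA2 was in place 3 in siSF3B6 and 9 in siNC, and CENPF in place 15 in siSF3B6 and 23 in siNC, while CENPP was in place 46 in both.

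**Figure D3:**
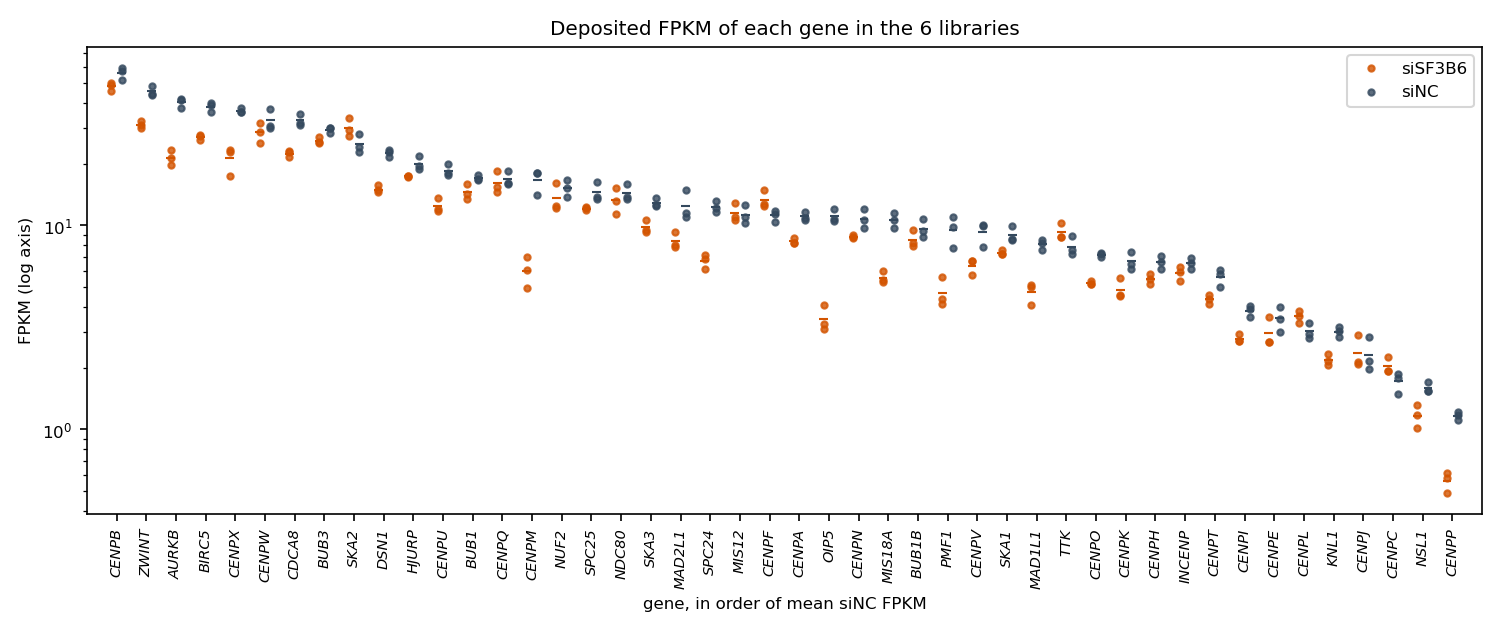
Each gene's deposited FPKM in the 3 siSF3B6 libraries (orange, left of each pair) and the 3 siNC libraries (dark blue, right), on a log axis, in the order of the mean siNC level; horizontal strokes are group means. Group means run between 48.2 and 0.560 FPKM in siSF3B6 and between 56.0 and 1.17 FPKM in siNC. In siSF3B6, OIP5 and CENPM lie far below their siNC values.

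Fold changes of these genes moved with the GC content of their transcripts, as did those of all genes. Over the 46 genes Spearman's rho between log2 fold change and GC content of the longest annotated transcript was -0.47, and over the 16675 tested genes with a value it was -0.34; the points share the same 6 libraries, and the values are descriptions. The 14 members with at least 50% GC had a median of -0.61, with 12 falls and no rise. The 6915 tested genes between the lowest and the highest GC content of these members had a median of -0.14. The 12 members from 42% to under 50% GC had a median of -0.24, against 0.07 in 4358 tested genes chosen the same way. The 20 members under 42% GC had a median of -0.13, with 7 falls and 4 rises, against 0.19 in 3666 tested genes chosen the same way. In each of the 3 classes the members' median was thus below that of tested genes within the members' span of GC content. The share of tested genes called in these spans was not counted, so the falls and rises have no such share beside them. The 5 genes that rose had 37.4% to 43.3% GC, and the 26 that fell had 32.9% to 63.9%.

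When GC content and length entered the edgeR fit as an offset, 36 of the 46 genes fell, against 22.7% of all genes tested, and 2 rose, against 23.7%. The median was -0.358 with the offset and -0.328 without it. Of the 26 genes that fell without the offset, 25 also fell with it, and the exception was CENPT. A further 11 genes fell with the offset alone: HJURP, CENPH, CENPQ, CENPW, NDC80, NUF2, SPC25, CENPE, BUB1, BUB1B and BUB3. Of the 5 rises 1 remained, CENPL at 0.20, and CENPB was the other rise. SKA2, CENPF and TTK had values of 0.13 each and CENPC had 0.09.

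**Figure D4:**
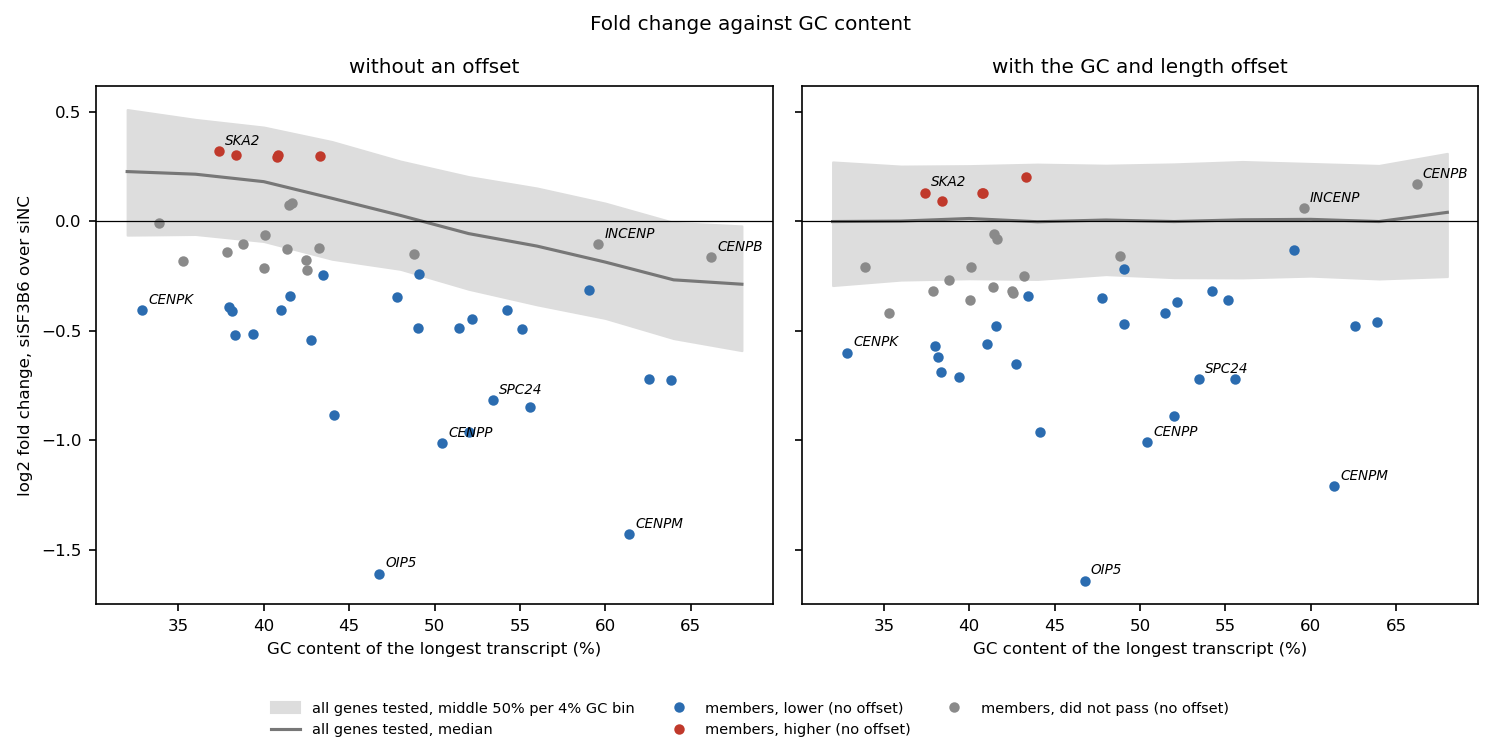
Log2 fold change, siSF3B6 over siNC, against the GC content of each gene's longest transcript, without an offset on the left and with the GC and length offset on the right; points are the 46 genes coloured by their call without the offset, the line is the median of all genes tested and the band their middle 50% in bins of 4% GC. The line slopes down on the left and lies near 0 on the right, where the 14 genes with at least 50% GC have a median of -0.44 and the 20 under 42% GC a median of -0.31.

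Another 35 genes that work beside these proteins were measured in the same fit: further centromere proteins, the RZZ complex and Spindly, checkpoint kinases and regulators, cohesion protectors, microtubule-end proteins and the anaphase-promoting complex. Of these 13 fell, 4 rose and 18 did not pass, with a median of -0.139, beside 20.0% lower and 20.8% higher over all genes tested. With the GC and length offset 20 fell and 5 rose, with a median of -0.257, beside 22.7% and 23.7%. The RZZ complex, which recruits dynein and the MAD1-MAD2 complex to kinetochores, held both the largest fall and the largest rise. Its subunit KNTC1 (ROD) measured 40.9, 39.3 and 44.9 CPM in siSF3B6 and 69.1, 65.4 and 65.5 CPM in siNC. All siSF3B6 libraries were lower (log2 fold change -0.68 ± 0.0825 SE, adjusted p = 4.17e-05). ZW10, another subunit of the same complex, measured 40.2, 42.1 and 44.5 CPM in siSF3B6 and 29, 30 and 27.4 CPM in siNC. It rose without overlap (log2 fold change 0.56 ± 0.0842 SE, adjusted p = 0.000207), and ZWILCH, the remaining subunit, had -0.21 and did not pass (adjusted p = 0.16), while under the GC and length offset it was called lower, at -0.42 (adjusted p = 0.000406). ANAPC2, the cullin subunit of the anaphase-promoting complex, measured 35, 34.9 and 28.2 CPM in siSF3B6 and 52.4, 53.1 and 43.1 CPM in siNC. The fall left no overlap between groups (log2 fold change -0.60 ± 0.108 SE, adjusted p = 0.000723), and against siNC replicate 3 alone the call was lost (adjusted p = 0.0852).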

How the data were processed

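Polyadenylated RNA of MDA-MB-231 cells was sequenced, and the authors deposited read counts per gene (39323 genes) and FPKM values (39210 genes), and raw reads were not used. Per the submitters' processing notes, HISAT2, DESeq2 and the build hg38 were used; which program counted reads, whether it used strand and on which annotation is not given in the sources used here. In 5470 genes above 5 FPKM in every library, the deposited FPKM followed from the counts, a factor for the gene and a factor for the library within 0.193%. The FPKM were used for levels and in an alternative test.

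The counts were tested with edgeR 4.0.16 in R 4.3.3 (filterByExpr, TMM scaling, quasi-likelihood test, 3 libraries per group, Benjamini-Hochberg adjustment over the 16869 genes tested, threshold 0.05). Standard errors were taken from the log2 fold change and the F statistic. Alternatives were DESeq2 1.42.0, limma 3.58.1 on log2(FPKM + 1) and log2(FPKM + 0.1), other scalings and filters, a lowess offset (span 0.3) for GC content and length from GENCODE 29, known for 98.8% of tested genes, and libraries left out. The fit was also run on simulated counts that held no GC lean between libraries, so that run does not vouch for the calls here.

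The members and gene lists were chosen with earlier results of these data known. Values in every library were given for members called with a log2 fold change of at least 0.5 in size, the called member of largest change and the uncalled member of highest siNC FPKM in each complex, and members called higher; of the 35 further genes, those called with a change of at least 0.5 were named, and ZWILCH and OIP5-AS1 were named after their values were seen. The lowest count of a member in a library was 133 reads; library totals stand in the report.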

Additional observations from a re-analysis of the deposited data

How the results depend on the processing

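All 26 members that fell kept a negative value in all 20 alternatives, and the number of members that fell lay between 18 (siNC replicate 3 as only control) and 36 (GC and length offset). The number that rose was 2 with that offset, 0 with scaling by library size alone, with each of the 3 limma fits on FPKM and against siNC replicate 3 alone, and 0 to 5 with a library left out. Scaling by library size alone shifted the all-gene median by -0.10 and gave a members' median of -0.433. Libraries with the same replicate number correlated at 0.040, 0.106 and 0.136 in their deviations from the group means, each library best with its own number, which is a hint from the data and not from the design, so the numbers were not taken as a pairing. With the replicate number as a block 31 members fell and 5 rose, and with block and offset together, added after seeing the data, 36 fell and 2 rose. Of the 35 further genes, 20 fell with the offset, 21 with the libraries numbered 1 and 2 only, 21 with block and offset and 5 against siNC replicate 3 alone. Of these genes 2 rose with library size scaling, with the limma fits and against that library alone, and 2 to 4 with a library left out. Their median was -0.257 with the offset, with or without the block, -0.240 with library size scaling, -0.231 with the lone control and between -0.211 and -0.098 with a library left out. Members that did not pass in the reported test and changed sign were CENPB (0.17), INCENP (0.06), MIS12 (-0.06) and CENPJ (-0.08) with the offset, with or without the block; MIS12 (-0.03) and CENPJ (-0.01) with library size scaling; MIS12 (-0.08) and CENPJ (-0.20) with the lone control; CENPW (0.04) with libraries 1 and 2 only; and CENPQ (0.04) with a length offset alone. With a library left out, CENPQ lay between -0.12 and 0.06, NDC80 between -0.18 and 0.03, MIS12 between -0.02 and 0.15 and CENPJ between -0.09 and 0.25. The cause was not tested. siNC replicate 3 as the lone control assumes that this library varies like the others. The share of all genes called was counted only in the reported test and with the GC and length offset. Counts in the other settings have no such share beside them. Every member had at least 133 reads per library.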

Other observations

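The level of these genes within a group followed the library and the GC content of the transcript. Among the 14 members with at least 50% GC, siSF3B6 replicate 3 was the lowest siSF3B6 library in 14, and siNC replicate 3 was the lowest siNC library in 11. Among the 20 members under 42% GC, siSF3B6 replicate 3 was the highest siSF3B6 library in 19 and siNC replicate 3 the highest siNC library in 18. Over all tested genes of at least 50% GC, the third siSF3B6 library was the lowest of its group in 69.3% and the third siNC library in 59.7%. Under 42% GC the third siSF3B6 library was the highest in 79.2% and the third siNC library in 63.7%. The same lean is thus seen in all tested genes and in both groups, and its part in the differences between groups was not tested.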
